A study of Mus musculus with 24 samples.

Results

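The AP-1 Fos and Jun family was followed here across the cells of Panc02 tumors. Its members were taken by name, as the rows of the count table whose symbol is Fos, Fosb, Fosl1, Fosl2, Jun, Junb, Jund, Batf or Atf3, which gave 9 of the 32285 genes listed. All 9 were present once. Their identifiers are ENSMUSG00000021250 (Fos), ENSMUSG00000003545 (Fosb), ENSMUSG00000024912 (Fosl1), ENSMUSG00000029135 (Fosl2), ENSMUSG00000052684 (Jun), ENSMUSG00000052837 (Junb), ENSMUSG00000071076 (Jund), ENSMUSG00000034266 (Batf) and ENSMUSG00000026628 (Atf3).

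AP-1 is a transcription factor made of a pair of proteins that grip DNA through a basic region and hold each other through a leucine zipper. Fos proteins (Fos, Fosb, Fosl1, Fosl2) must pair with another family to bind, whereas Jun proteins (Jun, Junb, Jund) can also pair among themselves. Fos, Fosb, Jun, Junb and Atf3 are immediate early genes, switched on within minutes by growth factors, antigen receptor signals, cytokines and stress, including the enzymes and handling used to take a tissue apart. Fosl1 follows sustained Ras and MAP kinase signaling in carcinoma cells. Jund is expressed more steadily, and Batf pairs with Jun proteins and Irf4 in activated and exhausted T cells.

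Panc02 is a mouse pancreatic cancer line. Wild-type male C57BL/6 mice aged 6 to 7 weeks received Panc02 cells under the skin of the flank, and tumors were taken on day 38. The 8 treatments combined PancVAX (neoantigen peptides with an adjuvant and a STING agonist, on days 12 and 19, with 50 µg of each peptide by the study's methods), Anti-PD-1 (100 µg in repeated doses from day 12) and Anti-CTLA-4 (100 µg on days 15 and 22). They were PancVAX, PancVAX + Anti-PD-1, PancVAX + Anti-CTLA-4, PancVAX + Anti-PD-1 + Anti-CTLA-4, Anti-PD-1, Anti-CTLA-4, Anti-PD-1 + Anti-CTLA-4, and Isotype Control. The days given here follow the study's methods. A figure legend of the paper gives an earlier tumor day for the T cells, and days 15 and 19 for Anti-CTLA-4. By the study's methods, mice without the vaccine were given PBS in its place, and PancVAX without Anti-PD-1 and Anti-CTLA-4 came with isotype antibodies. Tumors were pooled within a treatment, by the same methods. Each treatment has a library of the dissociated whole tumor and a Percoll library, in which a density gradient had enriched immune cells. The sources used here do not say whether 1 pool of tumors gave both libraries. That made 16 single-cell 5′ RNA libraries, 8 of each preparation. The 2 preparations were also the 2 sequencing batches, so the gradient and the batch cannot be told apart. Each barcode's library was taken from its number in the table and the numbers in the sample descriptions, an order that the labels do not state for the table, and every treatment and preparation value rests on that match. Because mice were pooled, the tests below measure the spread between libraries and not between mice.

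The deposited table held 144994 cell barcodes, of which 57357 (39.6%) passed the limits of 1000 to 10000 unique molecular identifiers (UMIs), 200 to 3000 genes, under 10% mitochondrial counts and no hemoglobin UMI. Libraries totalled 77132398 to 176233225 UMIs and kept 1793 to 7413 cells, with medians of 2782 to 4193 UMIs per cell. Cells were clustered without the members among the genes used and named from marker lists. The largest lineages were tumor or epithelial cells (14770), macrophages or monocytes (13959), CD8 T cells (11005) and neutrophils (8164), followed by B cells (2706), dendritic cells (1802), CD4 T cells (1309), regulatory T cells (854), endothelial cells (621), NK cells (514) and fibroblasts (266). The tumor label rests on epithelial keratins and related markers, and several tumor clusters also carried fibroblast markers. Of the barcode sequences in kept cells, 2057 of 55243 (3.72%) occurred in more than 1 library.

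The sequence just before the start site is shown for the 4 immediate early members that the results below turn on, because these genes carry short elements through which signals reach them. RefSeq promoters on GRCm38.p6 matched 8 of the 9 members. Each line gives the 120 bases that end just before the start site, with TGACG (the core of a CREB or ATF element) or, in Jun, TGACATCA (a variant AP-1 element) in capitals. Fos lies at chr12:85473770-85473889 on the plus strand, Fosb at chr7:19310046-19310165, Jun at chr4:95052223-95052342 and Junb at chr8:84978749-84978868, all 3 on the minus strand.
Fos: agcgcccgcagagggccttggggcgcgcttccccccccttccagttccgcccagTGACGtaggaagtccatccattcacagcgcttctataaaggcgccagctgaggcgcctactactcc
Fosb: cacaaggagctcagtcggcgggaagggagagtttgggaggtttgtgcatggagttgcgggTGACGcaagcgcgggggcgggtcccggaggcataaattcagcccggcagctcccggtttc
Jun: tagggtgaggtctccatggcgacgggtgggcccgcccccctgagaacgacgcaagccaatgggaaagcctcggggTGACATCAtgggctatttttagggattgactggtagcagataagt
Junb: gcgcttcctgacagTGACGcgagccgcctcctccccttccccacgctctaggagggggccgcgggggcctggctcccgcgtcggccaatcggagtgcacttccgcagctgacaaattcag

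Searched on both strands over the 250 bases before the start, TGACG was present in Fos, Fosb, Junb, Batf and Atf3, and in 17.8% of 32851 promoters. TGACATCA, whose letters do not contain TGACG, was present in Jun and in 2.93% of promoters. The consensus AP-1 letters TGANTCA were in no matched member's window and in 6.75% of all promoters. A match describes the letters of the window and not the binding of a factor.

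Levels are given in CPM, a gene's UMIs scaled to a common total after all cells of a lineage in a library were summed, and are compared only within a gene. In such sums a smaller share of expressing cells and less RNA per cell cannot be told apart. Fos, the partner that gives AP-1 much of its strength, had its highest median in tumor or epithelial cells at 3042.1 CPM (1818.4 to 5534.8 over 16 libraries). Lower medians followed in fibroblasts (2531.8), endothelial cells (1767.1), macrophages (1472.6), dendritic cells (718.0) and B cells (689.5), and CD8 T cells were the lowest of the 11 lineages ordered, at 187.3 CPM. Neutrophils had no single place in this order. Their median over all libraries, 1055.6 CPM, lay in a gap between the preparations, with 1853.3 CPM in whole tumor libraries, above macrophages (1331.3), and 485.4 CPM in Percoll libraries, below dendritic cells (775.2) and B cells (828.9). Of its 10 steps, those from fibroblasts to endothelial cells, from B cells to NK cells and from CD4 to CD8 T cells exceeded the spread between libraries (adjusted p = 0.0352, 0.00061 and 0.0323). These p-values come from an exact sign-flip permutation test on the log2 difference within libraries, 2-sided, with Benjamini-Hochberg adjustment over the 90 neighbor steps of all 9 members, of which 22 passed.

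Fosb, a paralog of Fos, kept nearly the same order, with 1091.3 CPM in tumor cells and a step from macrophages (383.7) to dendritic cells (223.3) that went the same way in 16 of 16 libraries (exact permutation, adjusted p = 0.000458). Fosl1 was highest in tumor or epithelial cells among the 11 lineages ordered. They held a median of 262.9 CPM (124.6 to 462.4), and the next lineage, endothelial cells, held 19.8 CPM, with 246.1 CPM in its highest library. That step measured 4.24 ± 2.55 on the log2 scale (SD, n = 12 libraries, higher in 12 of 12, exact permutation adjusted p = 0.00338). Keratinocytes, too few to be ordered, held 34.2 CPM in 1 library and 202.8 CPM in another. Fosl2 had another order. Neutrophils led with 627.7 CPM (508.5 to 815.7), ahead of regulatory T cells at 285.2 CPM in 16 of 16 libraries (difference 1.17 on the log2 scale, exact permutation adjusted p = 0.000458). CD8 T cells (241.4 CPM) stood above tumor cells (154.3 CPM, adjusted p = 0.000458 by the same exact test), and B cells were lowest at 20.7 CPM.

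**Figure D1:**
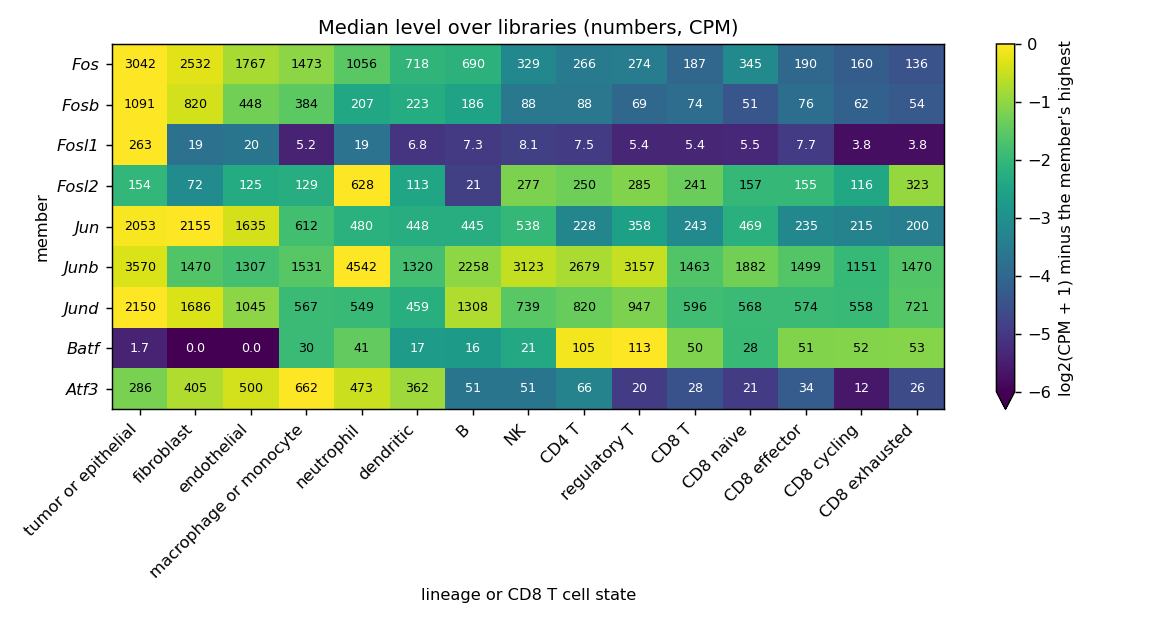
Level of each member in each lineage, drawn as the median log2(CPM + 1) over libraries minus the member's own highest lineage. Fos, Fosb and Jun are high in tumor and stromal cells, Fosl1 in tumor cells, Fosl2 and Junb in neutrophils (Junb in whole tumor libraries), and Batf in regulatory and CD4 T cells.

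Among the Jun proteins, Jun had nearly equal medians in fibroblasts (2154.6 CPM) and tumor cells (2052.8 CPM), which did not differ beyond their spread (exact permutation adjusted p = 0.427). It was higher in endothelial cells (1634.6 CPM) than in macrophages (612.1 CPM, exact permutation adjusted p = 0.00338) and was lowest in CD8 T cells (243.2 CPM) and CD4 T cells (228.0 CPM, adjusted p = 0.0158 for that step by the same exact test). Junb, which often restrains Jun, had its highest medians over all libraries in neutrophils (4542.1 CPM) and tumor cells (3569.6 CPM), with neutrophils higher in 9 of 16 libraries (exact permutation adjusted p = 0.107). Their order depended on the preparation, with 5707.1 CPM in neutrophils and 2942.2 CPM in tumor cells of whole tumor libraries, against 3392.1 and 4035.4 CPM in Percoll libraries. B cells (2258.0 CPM) exceeded macrophages (1530.7 CPM, adjusted p = 0.00061 by the same exact test). Jund was highest in tumor cells (2149.5 CPM) and fibroblasts (1685.6 CPM, exact permutation adjusted p = 0.103) and lowest in dendritic cells (458.7 CPM).

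Batf was highest in T cells. Regulatory T cells (113.4 CPM) and CD4 T cells (104.6 CPM) did not differ beyond their spread (exact permutation adjusted p = 0.78), CD4 T cells exceeded CD8 T cells (50.0 CPM) in 16 of 16 libraries (exact permutation adjusted p = 0.000458), and tumor cells held 1.7 CPM. Atf3, a stress-induced member, was highest in macrophages (662.3 CPM) and endothelial cells (500.2 CPM, exact permutation adjusted p = 0.652). Tumor cells (285.5 CPM) exceeded CD4 T cells (65.8 CPM) by 2.11 on the log2 scale in 16 of 16 libraries (exact permutation adjusted p = 0.000458).

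Within CD8 T cells, the exhausted state (3871 cells) held a median Fosl2 level of 322.6 CPM, against 156.8 in naive, 155.3 in effector and 116.2 in cycling cells. Fos ran the other way, with 345.1 CPM in naive, 190.1 in effector, 160.4 in cycling and 136.2 in exhausted cells. These states were clusters of the same cells, so their levels are a description and carry no test.

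The genes whose pattern was most like each member's, by Pearson's r of log2 levels over 32 lineage and preparation points and 11651 genes, are likewise descriptions, since the points share libraries and depth. Fos was closest to Fosb (r = 0.955), then Klf4 (0.913) and Ctsl (0.89). Jun was closest to Klf4 (0.898) and Fosb (0.892). Klf4, an immediate early zinc finger factor, also followed Fosb (0.932). Fosl1 followed Bdkrb1 (0.932), a bradykinin receptor, and Tpd52l1 (0.929). Junb followed Csrnp1 (0.804), and Batf followed the leukocyte genes Pstpip1 (0.929) and Rac2 (0.927). Among the members, Fos and Jun had r = 0.879, Fos and Junb 0.338, Fos and Fosl2 -0.211, and Jun and Batf -0.802.

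Shares of cells with a UMI were compared after thinning every cell to 1000 UMIs. In neutrophils, whose cells had a median of 1491 UMIs, 47.5% held a Fos UMI and 92.9% a Junb UMI (medians over libraries; 55.9% and 95.8% unthinned). In CD8 T cells, with a median of 3767 UMIs, 15.7% held Fos and 66.0% Junb (35.2% and 91.5% unthinned). Genes of other lineages were also found, since 3.22% of CD8 T cells held the macrophage gene C1qa and 2.14% the epithelial keratin Krt18. Whether free RNA or doublets gave these UMIs was not tested. Fosl1 (0.61%) in CD8 T cells lay below both shares, and Atf3 (2.63%) lay between them. These shares set no common floor, since carried-over UMIs also depend on a gene's level in its source cells. In whole tumor libraries macrophages held 178596 C1qa and 20066 Atf3 UMIs, and tumor cells 36648 Krt18 and 8269 Fosl1 UMIs. Over all libraries neither member is read as expressed or as absent in CD8 T cells from its share. In whole tumor libraries Atf3 was at 1.6%, against 4.11% for C1qa and 2.25% for Krt18. In Percoll libraries it was above both, at 3.73% against 2.11% and 1.93%. The ratio of counts differed between these 2 members. CD8 T cells of whole tumor libraries held 0.277 Fosl1 UMIs per Krt18 UMI, against 0.226 in tumor cells, and those of Percoll libraries held 0.408 against 0.325. For Atf3 per C1qa UMI, CD8 T cells held 0.621 (whole tumor) and 1.91 (Percoll), against 0.112 and 0.14 in macrophages. For Fos per Krt18 UMI, CD8 T cells held 5.33 and 16.4, against 2.84 and 2.44 in tumor cells.

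Fos and Jun were found in the same cells more often than independent detection would give in 3 of the 4 largest lineages. The observed number of thinned cells with both, over the number expected from each gene's share, had a median of 1.43 in CD8 T cells (1.1 to 1.92 over 13 libraries), 1.41 in macrophages (1.21 to 1.89 over 16 libraries) and 1.29 in tumor cells (1.1 to 2.11). In neutrophils it was 1.02 (0.84 to 1.51), around the expected number. For Fosl1 and Fosl2 in tumor cells the median was 1.57 (0.95 to 2.15 over 16 libraries, the lowest below the expected number). Over all tested pairs of members, the medians ran from 1.17 to 1.57 in tumor cells, 0.73 to 1.6 in macrophages and 0.86 to 1.52 in CD8 T cells. Fos with Jun is 1 of the pairs in each of these ranges, and pairs of other genes were not counted. A lineage takes together clusters with different levels, and the part of that was not tested. These ratios describe cells pooled within libraries and carry no test.

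Most calls of the family came in the comparison of Percoll with whole tumor libraries, which asks what the preparation changes. Percoll libraries kept 29052 cells, with 8066 tumor or epithelial cells, 5780 macrophages or monocytes and 5770 CD8 T cells. Whole tumor libraries kept 28305, with 6704, 8179 and 5235. In these sums tumor cells were not fewer after Percoll, though a single library held 4109 tumor cells. A gene was called changed at an adjusted p under 0.05 and a log2 fold change of at least 0.5 in either direction in edgeR's quasi-likelihood test on summed counts, with treatment as a block. Over 9 lineages, 31 of 73 tested member and lineage pairs (42.5%) were called, against 5.94% of all 61151 gene and lineage pairs. Of the 31, 29 were higher in Percoll libraries and 2 were lower. Jun rose in 8 of 9 lineages, Atf3 in 6, Fos and Jund in 4, and Fosb and Junb in 3, whereas Fosl2 (0 of 9, log2 fold changes of -0.39 to 0.23) and Batf (0 of 7, -0.15 to 0.36) had no call in a whole lineage. Both calls in the other direction were in neutrophils. Some of the calls were not stable. Jun in dendritic cells and in regulatory T cells was each lost under 10 alternatives, most of them a library left out, Atf3 in neutrophils under 14 and Atf3 in CD4 T cells under 6, and DESeq2 did not call Jun in regulatory T cells or Atf3 in CD4 T cells and neutrophils.

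In neutrophils of Percoll libraries Fos and Junb fell and Jun rose, where 4 of 9 members were called against 14.4% of genes. Neutrophil Fos measured 1547.1, 1853.3 and 2009.3 CPM (lowest, median and highest of 8 libraries) in whole tumor and 366.0, 485.4 and 564.1 CPM in Percoll. The groups did not overlap, and Percoll was lower in 8 of 8 treatments. The log2 fold change was -1.93 (SE 0.08, edgeR quasi-likelihood with Benjamini-Hochberg adjustment, adjusted p = 1.02e-15), a fold of 0.263. Neutrophil Junb went from 4911.3, 5707.1 and 6506.7 CPM in whole tumor to 2857.7, 3392.1 and 4172.9 CPM in Percoll, again without overlap and lower in 8 of 8 treatments (log2 fold change -0.73, SE 0.07, edgeR adjusted p = 2.98e-09). Neutrophil Jun took the opposite course, from 250.9, 371.9 and 408.5 CPM to 552.3, 601.4 and 670.8 CPM. These groups did not overlap either, and Percoll was higher in 8 of 8 treatments (log2 fold change 0.84, SE 0.07, edgeR adjusted p = 1.38e-09). Atf3 rose by 0.51 on the log2 scale, just past the fold limit (SE 0.08, edgeR adjusted p = 2.28e-05), with overlapping groups.

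**Figure D2:**
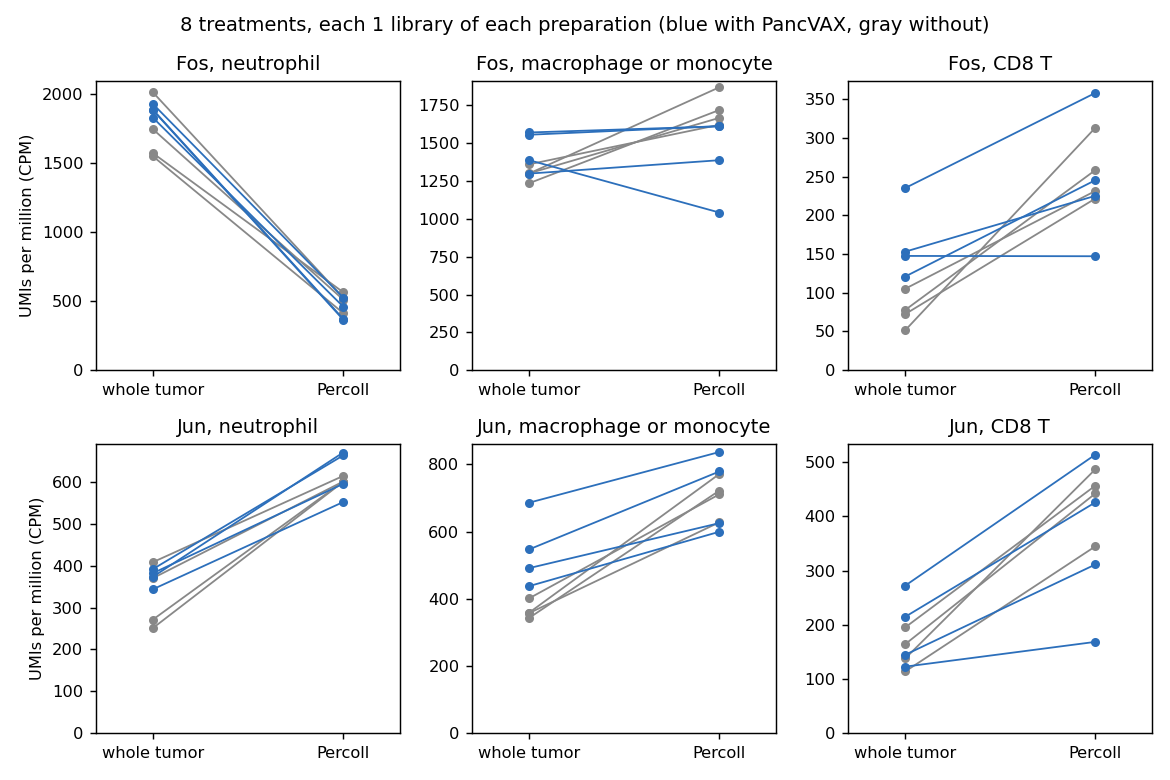
Fos and Jun in each library, in CPM on a log axis, with the whole tumor and Percoll libraries of a treatment joined by a line. In neutrophils every Fos line falls and every Jun line rises, while in CD8 T cells every Jun line rises.

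The neutrophil pattern held in both neutrophil clusters, that marked by Siglecf and Il1r2 and that marked by Retnlg, with log2 fold changes of -1.99 and -1.89 for Fos, -0.70 and -0.89 for Junb and 0.88 and 0.60 for Jun, all called, where 14.6% and 11.7% of genes were called. After thinning, the share of neutrophils with a Fos UMI had medians of 66.0% in whole tumor and 30.0% in Percoll libraries. Of 10 macrophage markers, 6 fell in neutrophils, and their summed level was 634 to 1760 CPM in Percoll against 1350 to 4540 CPM in whole tumor, compared with 28800 to 35700 CPM in macrophages themselves. The median Fos level of whole tumor libraries was 1853.3 CPM in neutrophils and 1331.3 CPM in macrophages. The part of the macrophage markers in the neutrophil result was not tested. Of 11 neutrophil markers, 3 rose and 1 fell, and their summed level was 48700 to 67600 CPM in Percoll and 54300 to 70600 CPM in whole tumor.

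CD8 T cells gained 6 of the 9 members in Percoll libraries, against 6.82% of genes called. CD8 T cell Jun measured 113.5, 154.1 and 272.0 CPM in whole tumor and 168.2, 434.2 and 514.2 CPM in Percoll. The groups overlapped, but within a treatment Percoll was higher in 8 of 8 (log2 fold change 1.16, SE 0.09, edgeR adjusted p = 8.49e-10). Fosb measured 19.8, 31.6 and 74.5 CPM against 74.1, 104.8 and 145.2 CPM (log2 fold change 1.31, SE 0.18, edgeR adjusted p = 1.22e-05), higher in 8 of 8 treatments with barely touching groups. Fos measured 51.5, 113.0 and 235.1 CPM against 147.1, 238.4 and 357.9 CPM, higher in 7 of 8 treatments (log2 fold change 1.04, SE 0.15, edgeR adjusted p = 2.88e-05). Junb, Jund and Atf3 rose by 0.73, 0.53 and 0.88 on the log2 scale. Beside these, 5 of 7 tested macrophage markers and 3 of 4 tested epithelial markers fell in CD8 T cells of Percoll libraries (summed 78.9 to 174 against 123 to 254 CPM, and 25.6 to 54.4 against 23.2 to 87.0 CPM), and none of 7 T cell markers changed (4400 to 5560 against 4210 to 5500 CPM). Of 4 tested fibroblast markers 2 fell (3.16 to 18.8 against 10.9 to 29.6 CPM). The part of these markers in the result was not tested.

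Over 4 CD8 T cell states, 17 of 33 member and state pairs were called, all higher in Percoll, against 4.64% of gene and state pairs. Exhausted cells had the highest log2 fold changes of the 4 states for Fosb, Jun and Fos, but not for Junb (0.55) or Atf3 (0.74), and no test between states was run. Their Fosb measured 14.7, 24.9 and 43.6 CPM in whole tumor and 64.2, 108.0 and 151.9 CPM in Percoll without overlap (log2 fold change 2.04, SE 0.15, edgeR adjusted p = 8.11e-11). Their Jun measured 84.9, 95.2 and 197.3 CPM against 202.5, 392.6 and 505.7 CPM, also without overlap (log2 fold change 1.61, edgeR adjusted p = 1.89e-12), and their Fos rose by 1.41. In exhausted cells 4 of 5 tested macrophage markers fell (66.7 to 172 against 114 to 214 CPM), as did 1 of 4 tested epithelial markers (25.1 to 54.5 against 22.1 to 88.6 CPM). The part of these markers was not tested. In effector cells Jun rose by 0.92, Junb by 0.90 and Atf3 by 0.76, and in naive cells Atf3 rose by 1.31 and Fos by 1.11.

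**Figure D3:**
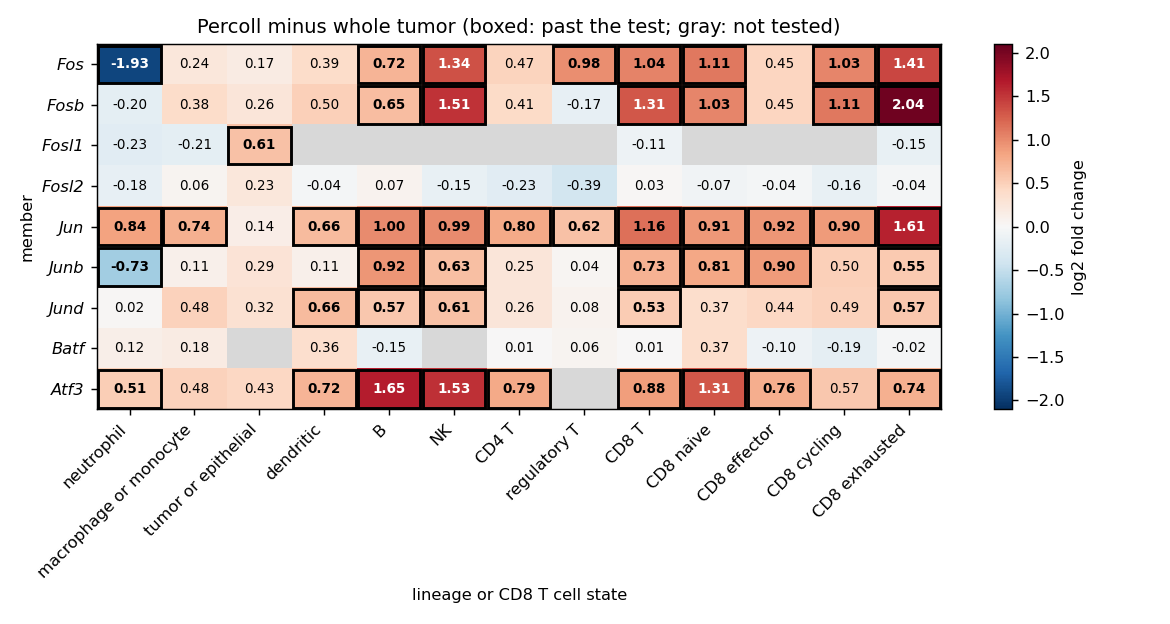
Log2 fold change, Percoll minus whole tumor, of each member in each tested lineage and CD8 T cell state, with its standard error; filled points were called. Neutrophil Fos at -1.93 and Junb at -0.73 are the called points below 0.

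NK cells and B cells also had 6 members called each, against 4.59% and 7.84% of genes. In NK cells, Atf3 rose by 1.53, Fosb by 1.51, Fos by 1.34 and Jun by 0.99 on the log2 scale. All 3 tested macrophage markers fell in the same cells (summed 108 to 342 against 265 to 633 CPM), and their part in the result was not tested. In B cells, Atf3 measured 0.0, 36.3 and 51.6 CPM in whole tumor and 50.5, 101.2 and 147.1 CPM in Percoll, groups that met at their edges (log2 fold change 1.65, edgeR adjusted p = 2.32e-05), and Jun rose by 1.00, Junb by 0.92 and Fos by 0.72. In the same B cells 1 of 7 B cell markers fell (summed 6020 to 8950 against 7420 to 10700 CPM) and 1 of 2 tested epithelial markers fell (44.0 to 115 against 55.7 to 161 CPM). Dendritic cells gained Atf3 (0.72), Jun (0.66) and Jund (0.66), against 2.18% of genes called. Beside them 1 of 7 tested macrophage markers fell (450 to 843 against 413 to 862 CPM), and of 5 tested neutrophil markers 1 rose and 1 fell (269 to 1580 against 254 to 719 CPM). CD4 T cells gained Jun (0.80) and Atf3 (0.79), against 3.43%, and regulatory T cells Fos (0.98) and Jun (0.62), against 2.9%. In macrophages, where 5.98% of genes were called, only Jun was called, from 342.5, 419.1 and 685.9 CPM to 599.3, 716.4 and 836.9 CPM, overlapping but higher in 8 of 8 treatments (log2 fold change 0.74, SE 0.07, edgeR adjusted p = 2.42e-08). Of 9 tested neutrophil markers in macrophages 2 rose and 1 fell (259 to 492 against 176 to 326 CPM), and 2 of 3 tested epithelial markers (23.8 to 54.9 against 29.5 to 94.9 CPM) and 3 of 4 tested fibroblast markers (6.36 to 14.4 against 13.8 to 32.7 CPM) fell. Further members were called within macrophage clusters, with no test between clusters. In the largest, led by Apoe and C1qc, Jun (0.85) and Jund (0.56) rose, against 4.73% of genes. In that led by Ccl24 and Ccl8, Atf3 (0.93), Jun (0.63), Fosb (0.62) and Fos (0.61) rose, against 2.78% of genes, while 3 of 6 tested neutrophil markers (summed 134 to 329 against 63.9 to 203 CPM) and 1 of 2 B cell markers (186 to 309 against 183 to 252 CPM) rose and 2 of 3 epithelial markers fell (45.2 to 119 against 51.9 to 188 CPM). In the monocyte cluster led by Arg1, F13a1 and Chil3, Fos fell by 0.50, against 6.75% of genes, while 2 of 9 tested neutrophil markers rose (364 to 2010 against 347 to 1180 CPM) and 1 of 10 macrophage markers (8820 to 13400 against 10100 to 14900 CPM) and 1 of 2 epithelial markers (17.2 to 132 against 16.2 to 145 CPM) fell. The part of these markers in the B cell, dendritic cell and macrophage results was not tested. In tumor or epithelial cells, where 2.74% of genes were called, Fosl1 was the member called of 8 tested over the whole lineage. It measured 124.6, 187.9 and 432.8 CPM in whole tumor and 239.4, 348.4 and 462.4 CPM in Percoll, overlapping but higher in 8 of 8 treatments (log2 fold change 0.61, SE 0.08, edgeR adjusted p = 0.000123). In the same cells 1 of 7 tested epithelial markers rose (summed 2060 to 3530 against 1520 to 2660 CPM) and 2 of 7 fibroblast markers fell (545 to 1360 against 546 to 1410 CPM). Of 8 tested neutrophil markers 1 rose and 1 fell (91.3 to 359 against 61.0 to 235 CPM). The part of these markers in the result was not tested.

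Within the tumor lineage, the 2 largest clusters had these calls. In the largest (8347 cells, led by Prelp, Ccn1 and Ogn) Fosl1 alone was called (0.60), against 2.82% of genes. In the next (3943 cells, led by Gm26917, Rhox5 and Lgals1, with a median of 2830 UMIs per cell against 6419 in the largest) all 8 tested members rose in Percoll libraries, against 10.9% of genes. Their log2 fold changes were 1.66 for Fosb, 1.34 for Fos, 1.18 for Atf3, 0.99 for Jund, 0.98 for Jun, 0.89 for Junb, 0.87 for Fosl2 and 0.57 for Fosl1. Fos in this cluster measured 123.9, 278.3 and 689.7 CPM in whole tumor and 316.8, 964.5 and 1341.8 CPM in Percoll, with overlapping groups. Beside these, 3 of 6 tested epithelial markers (summed 1570 to 2840 against 1150 to 1950 CPM) and 2 of 5 tested fibroblast markers (126 to 357 against 78.2 to 264 CPM) rose, 1 of 5 tested neutrophil markers rose (18.2 to 227 against 13.6 to 72.1 CPM), and 3 of 6 tested macrophage markers fell (96.8 to 434 against 183 to 505 CPM). Their part in the result was not tested, nor was the difference between the clusters.

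The preparation difference itself differed between lineages. A test of the difference between lineages over CD8 T cells, macrophages and neutrophils called 8 of 27 member comparisons, against 2.72% of all gene comparisons. For Fos, the CD8 T cell change minus the neutrophil change was 3.02 on the log2 scale (SE 0.19, edgeR adjusted p = 3.82e-12), and the macrophage change minus the neutrophil change was 2.12 (edgeR adjusted p = 7.67e-20). Junb gave 1.45 and 0.80 for the same comparisons, and Fosb gave 1.56 for CD8 T cells minus neutrophils. CD8 T cells also exceeded macrophages for Fosb (1.06), Fos (0.87) and Junb (0.62). Jun was not called in any of the 3 comparisons.

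The other genes of the pathway, in 4 lists chosen with earlier results of these data known, were counted in the same fits. Of 20 immediate early and dissociation genes, 59 of 170 gene and lineage pairs rose and 6 fell (38.2% called), and this share and the 3 that follow stand against 5.94% of all gene and lineage pairs. In CD8 T cells, where 6.82% of genes were called, 10 of 19 rose, among them the mRNA decay factor Zfp36 (1.49), the zinc finger factor Egr1 (1.33), the phosphatase Dusp1 (1.17) and the cytokine inhibitor Socs3 (1.10), with a list median of 0.59 against -0.01 for all genes. In neutrophils, where 14.4% of genes were called, 1 rose and 5 fell, with Zfp36 at -1.18, Btg2 at -1.17 and Nr4a1 at -0.66, and Klf6 rose by 0.83 (list median -0.11 against -0.03). Of 18 partner genes, mostly bZIP factors with the cofactors Irf4, Irf8, Nfatc1 and Nfatc2, 25 of 120 pairs rose and 5 fell (25%). In neutrophils Mafk (1.09) and Jdp2 (0.88) rose and Maf (-1.01), a factor that macrophages also express, fell. Of 20 genes of MAP kinase input and feedback, 13 of 126 pairs rose and 1 fell (11.1%), with 5 of 20 up in tumor cells, where 2.74% of genes were called, Dusp6 by 0.79 among them. Of 14 known AP-1 targets, 11 of 65 pairs rose and 7 fell (27.7%). The urokinase receptor Plaur (0.82), Hmox1 (0.79) and the protease Mmp3 (0.73) rose in tumor cells, and Ccnd1 (-1.36), Plaur (-0.83) and Il1b (-0.65) fell in CD8 T cells. Macrophage and epithelial markers fell in the same CD8 T cells, as given above, and their part in these falls was not tested. In neutrophils Plau (2.04) and Plaur (0.64) rose, and Ccnd1 (-0.99) and Il1b (-0.86) fell.

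PancVAX was compared over the 4 treatments with it and the 4 without, each treatment's libraries summed to a pool and both antibodies as covariates. Over 9 lineages, 2 of 77 member and lineage pairs were called by edgeR (2.60%), a share near the 2.02% of all 71545 gene and lineage pairs. Both were in CD8 T cells, where 10.8% of genes were called. DESeq2 called the same 2 and also Jund in tumor or epithelial cells (log2 fold change -0.51), which edgeR did not call (adjusted p = 0.0788). Over the 9 lineages the edgeR log2 fold changes of Jund ran from -0.51 to 0.16, with none called. The CD8 T cells of the groups lay in different states. Exhausted cells made up 14.8% to 26.1% of them in the 8 libraries with PancVAX and 50.8% to 66.7% in the 8 without, effector cells 45.7% to 60.0% against 3.97% to 7.54%, and naive cells 4.48% to 15.5% against 15.4% to 36.4%. The part of this mix in the results over all CD8 T cells was not tested. Atf3 measured 28.0, 36.7, 34.7 and 47.1 CPM in pools with PancVAX and 25.6, 32.9, 17.5 and 18.3 CPM in pools without. The groups overlapped (log2 fold change 0.58, SE 0.12, edgeR adjusted p = 0.00568), and without the PancVAX + Anti-PD-1 pool the value of 0.44 was below the fold limit. Within states its log2 fold change was 1.00 in cycling, 0.90 in naive, 0.83 in effector and 0.04 in exhausted cells, with none called by edgeR. Fosl1 measured 5.1, 9.6, 9.6 and 7.7 CPM with PancVAX and 5.7, 4.0, 2.4 and 2.9 CPM without, overlapping by 1 pool (log2 fold change 1.04, SE 0.22, edgeR adjusted p = 0.00628). The call of Fosl1 was lost without upper limits on UMIs and genes (0.57) and after thinning (1.03). Fosl1 was not called in the other lineages where it was tested, with log2 fold changes of 0.32 to 1.20. In macrophages it measured 7.9 to 8.7 CPM with PancVAX and 3.1 to 5.0 CPM without, with no overlap (log2 fold change 0.99, edgeR adjusted p = 0.059), and the CD8 T cell change minus the macrophage change was 0.05 (SE 0.26, edgeR adjusted p = 0.954). In the same CD8 T cells 3 of 4 tested epithelial markers rose (summed 43.3 to 72.2 against 24.6 to 48.7 CPM), and 2 of 5 tested neutrophil markers rose (17.4 to 31.3 against 10.4 to 17.6 CPM). Of 4 tested fibroblast markers 1 rose (13.2 to 18.5 against 7.68 to 14.6 CPM), whereas 1 of 7 T cell markers fell (4350 to 4770 against 5070 to 5510 CPM) and 1 of 3 tested B cell markers fell (29.1 to 59.7 against 73.3 to 79.8 CPM). Their part in the result was not tested. The ratios of Fosl1 to Krt18 UMIs given above were taken over all treatments and were not compared with and without PancVAX.

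Junb in CD8 T cells separated the pools without passing the fold limit. It measured 1784.3 to 2055.0 CPM in the 4 pools with PancVAX and 1216.4 to 1472.3 CPM in the 4 without, with no overlap (log2 fold change 0.42, edgeR adjusted p = 0.00144). In the CD8 T cell states, 3 of 34 pairs were called, against 2.41% of gene and state pairs. Cycling cells held 1251.1 to 1635.6 CPM of Junb with PancVAX and 940.1 to 1014.4 CPM without, no overlap (log2 fold change 0.54, edgeR adjusted p = 5.76e-05), and 59.6 to 95.8 CPM of Batf against 35.4 to 52.9 CPM, also without overlap (log2 fold change 0.71, edgeR adjusted p = 0.0162). Effector cells held 1824.8 to 2104.6 CPM of Junb against 1190.3 to 1719.6 CPM, no overlap (log2 fold change 0.55, edgeR adjusted p = 0.000184). Few effector cells stood behind the pools without PancVAX, 231 in 8 libraries (12 to 55 each), against 3631 with it (300 to 643 each).

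The PancVAX change of Fosb in CD8 T cells differed between the preparations. In whole tumor libraries Fosb measured 34.2, 63.0, 50.2 and 74.5 CPM with PancVAX and 23.7, 28.9, 19.8 and 24.6 CPM without, with no overlap (log2 fold change 1.08, edgeR adjusted p = 0.00018). In Percoll libraries it measured 86.9, 74.1, 74.9 and 113.9 CPM with PancVAX and 107.4, 145.2, 130.9 and 102.3 CPM without, overlapping and lower with PancVAX (log2 fold change -0.55, edgeR adjusted p = 0.0134). The test of that difference, the only member called of 9 against 0.0196% of genes, gave -1.60 on the log2 scale (SE 0.17, edgeR adjusted p = 9.54e-05). The mix of states differed with PancVAX, as given above. Fosb was higher in Percoll libraries by 2.04 on the log2 scale in exhausted cells and by 0.45, not called, in effector cells. In exhausted cells of whole tumor libraries Fosb measured 14.7, 31.0, 43.6 and 41.9 CPM with PancVAX and 24.8, 24.9, 19.6 and 19.8 CPM without. These groups overlapped, whereas those of effector cells did not (53.0 to 101.3 against 0.0 to 32.1 CPM). The part of the mix was not tested.

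**Figure D4:**
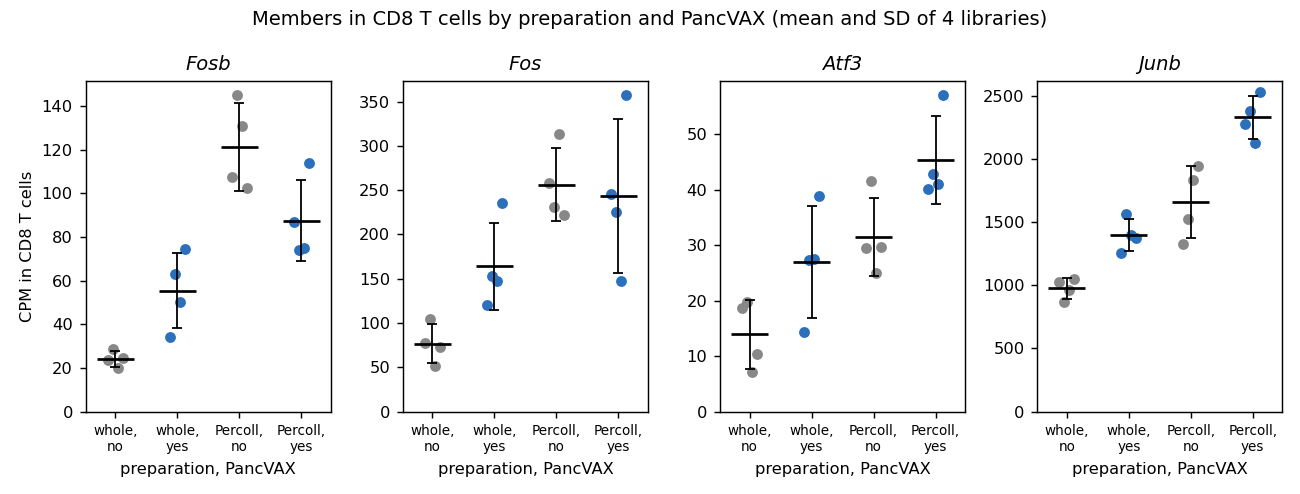
Members in CD8 T cells of each library, all states together, in CPM, by preparation and by PancVAX, with the mean and SD of 4 libraries. Fosb is higher with PancVAX in whole tumor libraries (55.5 ± 17.3 against 24.2 ± 3.73 CPM) and lower in Percoll libraries (87.5 ± 18.6 against 121 ± 20.1 CPM).

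In whole tumor libraries Fos measured 120.9, 153.0, 147.5 and 235.1 CPM with PancVAX and 77.7, 105.1, 51.5 and 72.4 CPM without, no overlap (log2 fold change 1.01, edgeR adjusted p = 3.71e-05). In Percoll libraries the log2 fold change was -0.18, with overlapping groups, and the test of the difference between preparations gave -1.14 and was not called (edgeR adjusted p = 0.0619). Within states, the whole tumor Fos groups overlapped in exhausted cells (58.6 to 144.5 against 44.2 to 71.1 CPM). They did not in effector cells (136.0 to 204.9 against 14.1 to 133.6 CPM). The part of the mix of states was not tested. Over all CD8 T cells Atf3 rose by 0.90 in whole tumor libraries (edgeR adjusted p = 0.0108) and stood at 0.49, just under the fold limit, in Percoll libraries (edgeR adjusted p = 0.0146). In effector cells the same test gave -2.84 for Fosb (edgeR adjusted p = 0.00101) and -1.45 for Fosl2 (edgeR adjusted p = 0.0254), with few effector cells behind the libraries without PancVAX as given above, and in macrophages -0.50 for Jun (edgeR adjusted p = 0.00885).

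Tests between lineages called 3 of 27 member comparisons of the PancVAX change, against 3.4% of gene comparisons. Atf3 rose more in CD8 T cells than in macrophages (0.51, edgeR adjusted p = 0.00887) and neutrophils (0.70, edgeR adjusted p = 0.0061), and the Fosl2 change was lower in CD8 T cells than in macrophages (-0.52, edgeR adjusted p = 0.000142). These compare all CD8 T cells, with the mix of states given above. The Fosl2 log2 fold change with PancVAX was -0.39 over all CD8 T cells, but 0.39 in effector, 0.38 in naive, 0.00 in exhausted and -0.33 in cycling cells, none called. Of the immediate early list, 8 of 20 rose in CD8 T cells, against 10.8% of genes, Ier3 by 1.67, the NF-kB inhibitor Nfkbia by 1.16, Nr4a1 by 1.03 and Klf2 by 1.01. Among bZIP partners and cofactors, Maf (0.84) and Nfe2l2 (0.70) rose and Irf8 (-1.26) fell.

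Each antibody was compared over the 4 pools with it, combinations included, and the 4 without. Over the 9 lineages no member was called for either. For Anti-PD-1, 0 of 77 pairs were called by edgeR and 0 by DESeq2, against 0.0266% of all pairs called. At an unadjusted p under 0.05 there were 15 of the 77 (19.5%), against 5.72% of all 71545 pairs. For Anti-CTLA-4, 0 of 77 were called by edgeR and 0 by DESeq2, against 0.0196% of all pairs. At an unadjusted p under 0.05 there were 10 of the 77 (13.0%), against 5.18% of all pairs. In the CD8 T cell states, an alternative added after the data were seen, 0 of 34 pairs were called for Anti-PD-1 by edgeR, against 0.0259% of gene and state pairs, and 1 of 34 for Anti-CTLA-4, against 0.0162%. At an unadjusted p under 0.05 there were 9 of the 34 (26.5%) for each antibody, against 4.51% of all pairs for Anti-PD-1 and 3.88% for Anti-CTLA-4. In each of these counts the pairs share genes and pools and are not independent. Jun in the PancVAX + Anti-PD-1 Percoll library was the lowest of its preparation in CD8 T (168.2 CPM) and tumor cells (1046.1 CPM). It was also lowest in CD4 T, regulatory T, NK and dendritic cells, but not in B cells or macrophages, and highest in neutrophils (670.8 CPM). The part of this library in the counts was not tested. The 1 call for Anti-CTLA-4 in the states was Jun in cycling cells, which measured 269.0, 355.5, 315.3 and 273.2 CPM in pools with Anti-CTLA-4 and 203.5, 113.8, 231.0 and 165.6 CPM in pools without, with no overlap (log2 fold change 0.83, SE 0.15, edgeR adjusted p = 0.0315).

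Adding both antibodies to PancVAX was compared over 2 libraries against 2, with preparation as a covariate in a fit of all 16 libraries. Over 9 lineages and 4 CD8 T cell states, 9 of 106 pairs were called, 5 higher and 4 lower, against 0.394% of all 86760 pairs. The same PancVAX libraries served in the comparison of PancVAX with Isotype Control, where 3 of 106 pairs were called, against 1.04%. Because 1 pool of tumors may have given both libraries of a treatment, the spread between pools may be unmeasured in both comparisons. Values are given below as whole tumor then Percoll.

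In B cells Jun and Fos fell with the antibodies. B cell Jun measured 177.8 and 375.6 CPM with both antibodies, 602.1 and 1413.7 CPM with PancVAX alone, and 246.0 and 429.6 CPM with Isotype Control. Both PancVAX libraries were higher than the other 2 groups' library of the same preparation, and the Percoll PancVAX library stood apart from the other 7 Percoll libraries by Dixon's criterion. The log2 fold changes were -1.86 for the antibodies (SE 0.28, edgeR adjusted p = 0.00162) and 1.5 for PancVAX against Isotype Control (SE 0.26, edgeR adjusted p = 0.0177). B cell Fos measured 345.7 and 622.4 CPM with both antibodies, 1103.5 and 1503.3 CPM with PancVAX and 486.3 and 756.5 CPM with Isotype Control, the same order (log2 fold changes -1.49, edgeR adjusted p = 9.35e-05, and 1.07, edgeR adjusted p = 0.00244). High levels were not limited to PancVAX alone. With PancVAX + Anti-CTLA-4 B cell Jun measured 668.1 and 867.1 CPM and Fos 820.0 and 1251.8 CPM. With PancVAX + Anti-PD-1 Jun measured 32.3 and 479.7 CPM and Fos 226.3 and 403.9 CPM. These 2 treatments were not compared with PancVAX here. Beside the falls of Jun and Fos with both antibodies, 1 of 7 B cell markers fell (summed 6020 to 7420 against 8710 to 8810 CPM), and 5 of 20 immediate early and dissociation genes fell. Among these the heat shock gene Hspa1a measured 0.0 and 0.0 CPM with both antibodies, 220.2 and 524.1 CPM with PancVAX and 7.7 and 0.0 CPM with Isotype Control, and Egr1 measured 108.7 and 200.3, 612.8 and 694.2, and 434.4 and 397.1 CPM. Hspa1b was likewise high in both PancVAX libraries (55.7 and 234.5 CPM) and at 1.9 to 4.9 CPM in the other 4, and Klf2 and Zfp36 fell too. The part of these genes and markers in the result was not tested. Both antibody calls remained with any 1 library left out, but where that leaves a treatment with 1 library, the lone library is assumed to vary like the other treatments. Both were lost without the preparation covariate, and that of Jun also without upper limits on UMIs and genes. Both calls against Isotype Control were lost without either Isotype Control library. The call of Fos was lost too without the whole tumor PancVAX library (edgeR adjusted p = 0.106), and that of Jun without the Percoll PancVAX library (edgeR adjusted p = 0.307).

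Dendritic cell Fos measured 444.8 and 735.1 CPM with both antibodies and 993.6 and 1613.0 CPM with PancVAX, lower in both preparations (log2 fold change -1.09, SE 0.20, edgeR adjusted p = 0.0287). With Isotype Control it measured 617.0 and 770.4 CPM, and the PancVAX pool (1242.8 CPM) stood above all 7 others (567.1 to 770.3 CPM). In the same dendritic cells the summed neutrophil markers were 670 to 711 CPM with both antibodies against 269 to 382 CPM, and the macrophage markers 450 to 467 against 698 to 845 CPM, with no tested marker of either list called. Their part in the result was not tested. Fosl2 rose in CD8 T cells, from 163.3 and 181.4 CPM with PancVAX to 307.1 and 253.7 CPM with both antibodies (log2 fold change 0.69, edgeR adjusted p = 0.00783). Exhausted cells made up 16.2% and 17.9% of CD8 T cells with PancVAX and 21.7% and 26.1% with both antibodies. In exhausted cells it rose from 240.0 and 284.2 CPM to 621.1 and 459.4 CPM, against 221.2 and 305.4 CPM with Isotype Control (log2 fold change 1.00, edgeR adjusted p = 0.00115). The 2 groups did not overlap in either case. Over all CD8 T cells Isotype Control held 185.9 and 239.9 CPM.

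Exhausted cells had 2 further calls. Their Junb measured 1562.5 and 2344.5 CPM with both antibodies and 1128.7 and 1442.4 CPM with PancVAX, against 968.3 and 1790.4 CPM with Isotype Control (log2 fold change 0.57, edgeR adjusted p = 0.0127). Their Jun measured 89.1 and 274.4 CPM against 130.1 and 505.7 CPM (log2 fold change -0.79, edgeR adjusted p = 0.0472), and PancVAX exceeded Isotype Control by 0.91 (edgeR adjusted p = 0.0473). Macrophage Fosl2 rose from 123.5 and 116.9 CPM to 160.0 and 177.2 CPM (log2 fold change 0.52, edgeR adjusted p = 0.024), and tumor cell Fosl1 from 177.4 and 360.3 CPM to 432.8 and 462.4 CPM (log2 fold change 0.79, edgeR adjusted p = 0.0316). Isotype Control held 132.9 and 128.5 CPM of the former and 174.5 and 250.6 CPM of the latter. Beside the macrophage call 1 of 9 tested neutrophil markers rose (326 to 363 against 199 to 333 CPM), and beside the tumor cell call 1 of 7 tested epithelial markers (2360 to 3510 against 2120 to 2540 CPM) and 1 of 7 fibroblast markers (696 to 697 against 545 to 570 CPM) rose. Their part in the results was not tested. Each of these calls outside B cells was lost on leaving out at least 1 library, with log2 fold changes from 0.36 to 1.00 for those that rose and from -1.38 to -0.53 for those that fell.

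T cell receptor sequences of the 8 Percoll libraries placed 4809 of 5770 CD8 T cells in a clone, by the beta chain V gene and CDR3 amino acids within a library. Of these, 1647 were the only cell of their clone and 3162 shared a clone with another cell. Expanded cells were compared with single cells within libraries, and 2 of 9 members were called, against 10.2% of 8531 genes. Fosl2 measured 140.1, 160.8 and 197.3 CPM (lowest, median and highest of 8 libraries) in single cells and 179.7, 291.3 and 408.1 CPM in expanded cells. It was higher in expanded cells in 8 of 8 libraries, with overlapping groups (log2 fold change 0.66, SE 0.10, edgeR adjusted p = 0.00017). Fos measured 146.4, 309.0 and 449.5 CPM in single and 129.6, 208.6 and 302.3 CPM in expanded cells, lower in 7 of 8 libraries with overlapping groups (log2 fold change -0.61, SE 0.12, edgeR adjusted p = 0.00129). Junb was lower in expanded cells in 8 of 8 libraries at -0.34 (edgeR adjusted p = 0.000122), below the fold limit.

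**Figure D5:**
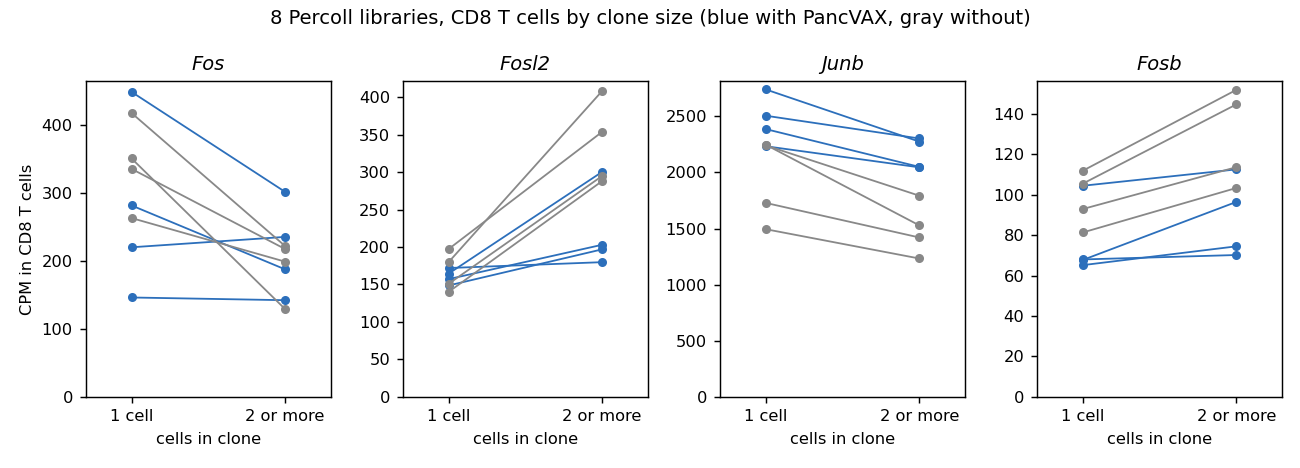
Members in single and expanded CD8 T cells of the 8 Percoll libraries, in CPM, with a line per library. Fosl2 rises in 8 of 8 libraries and Fos falls in 7 of 8.

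The mix of states differed between the same cells. Exhausted cells made up 24.4% to 89.9% of expanded and 5.7% to 25.1% of single cells per library, and naive cells 0.0% to 1.5% against 14.2% to 66.8%. Within exhausted cells alone the log2 fold change was 0.20 for Fosl2 and -0.46 for Fos, and within effector cells alone 0.02 and 0.26, with no tested member called in either. These 2 comparisons were added after the data were seen. The effector comparison left out the libraries of Anti-PD-1 and Isotype Control, with 5 and 1 expanded effector cells. Those of Anti-PD-1 + Anti-CTLA-4 and Anti-CTLA-4 held 12 and 11, against 158 to 287 in the libraries with PancVAX. Of the immediate early list, 7 of 18 fell in expanded cells and none rose, with Klf2 at -1.74, Socs3 at -1.51 and Zfp36 at -0.69. Among bZIP partners and cofactors, Irf8 (1.81) and Crem (0.71) rose and Maff (-1.05) and Maf (-0.95) fell, and the AP-1 target Areg rose by 1.34.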

How the data were processed

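The deposited table holds raw UMI counts per gene and cell barcode, which the authors made with Cell Ranger 4.0.0 on mm10 and aggregated over 16 libraries; the submitters' processing notes also name Seurat. Barcodes carry a library number, matched to samples by the number that starts each sample's description (the labels do not state that the table uses that order, so treatment and preparation values rest on this match), and 0 columns were left unused. The second deposited table holds T cell receptor contigs of the 8 Percoll libraries, with their UMI counts.

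Cells were kept within the limits stated in the report, taken from the study's methods where given. The upper limits on UMIs and genes, which alone removed 63062 barcodes (43.5%), were the main guard against doublets. Scrublet in scanpy 1.11.5, run as an alternative, marked 0.01% and 0.02% of cells in 2 libraries, where it did not work, and 1.49% to 3.69% elsewhere. Cells were scaled, reduced to 25 components, integrated over the 2 preparations with a Python version of the Harmony algorithm written for this work and clustered by Louvain's method at a resolution of 0.6 (igraph 0.11.9), leaving the members and their lists out of the 2000 variable genes, and clusters were named from fixed marker lists.

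Counts were summed per library and lineage (at least 10 cells) and tested with edgeR 4.0.16 (quasi-likelihood, TMM, low-count filter, Benjamini-Hochberg over all genes of a lineage) in R 4.3.3, with DESeq2 1.42.0 as an alternative. Treatment was a block for preparation; agents were tested on 8 pools, and single treatments on 16 libraries with preparation as a covariate. The fits were checked on simulated counts. Levels were compared on log2(CPM + 1) with exact sign-flip permutation tests. Named genes were all 9 members, for each the genes most like it by Pearson's r, and per list and comparison up to 4 called genes with the largest absolute change. The members, lists and tests were chosen with earlier results of these data known. Alternatives covered cell limits, doublets, thinning to 1000 UMIs, clustering, normalization, the count filter, covariates and leaving out each library. Ddit3 was left out of the bZIP list because 2 rows share its symbol. Intervals for single libraries were not used, since shares are given as medians over libraries.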

Additional observations from a re-analysis of the deposited data

Results flagged for a closer look

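In 4 of 66 groups of 8 libraries checked, the highest library stood apart from the rest of its preparation by Dixon's criterion, which chance meets in about 1 in 20 groups. These were Jun in B cells of the Percoll library of PancVAX (1413.7 CPM), Jun in dendritic cells of the whole tumor library of PancVAX (867.7 CPM), Fosb in NK cells of the whole tumor library of PancVAX + Anti-CTLA-4 (143.9 CPM), and Jun in regulatory T cells of the whole tumor library of Anti-CTLA-4 (698.0 CPM). The B cell value enters the Jun comparisons of PancVAX above.

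The change with preparation differed between lineages in tests of the difference itself (log2 scale, Percoll minus whole tumor). CD8 T cells minus neutrophils gave 3.02 for Fos, 1.56 for Fosb and 1.45 for Junb. CD8 T cells minus macrophages gave 0.87 for Fos, 1.06 for Fosb and 0.62 for Junb, and macrophages minus neutrophils gave 2.12 for Fos and 0.80 for Junb.

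The change with PancVAX differed between CD8 T cells and macrophages for Atf3 (0.51) and Fosl2 (-0.52), and between CD8 T cells and neutrophils for Atf3 (0.70). It differed between preparations (Percoll minus whole tumor) for Fosb in CD8 T cells of all states (-1.60), for Fosb (-2.84) and Fosl2 (-1.45) in effector cells, and for Jun in macrophages (-0.50). In effector cells of whole tumor libraries without PancVAX, Fosb ranged from 0.0 to 32.1 CPM.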

How the results depend on the processing

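The number of calls for preparation was 31 and stayed within 26 to 32 under every cell limit, clustering, normalization and filter tried, was 22 without the treatment block, 28 to 32 on leaving out a library and 17 over the CD8 T cell states, an alternative added after the data were seen. For PancVAX the 2 calls became 1 without upper limits on UMIs and genes, 1 after thinning, 6 with every gene that had a count, 4 in a fit of 16 libraries and 4 within whole tumor libraries, and 1 to 4 on leaving out a pool (1 without PancVAX + Anti-PD-1, 4 without PancVAX). With every gene that had a count, Anti-PD-1 had 2 calls and Anti-CTLA-4 had 1, and Anti-CTLA-4 had 1 over the CD8 T cell states; leaving out a pool gave 0 to 0 and 0 to 1 (1 without PancVAX + Anti-PD-1). The 9 calls for both antibodies became 5 after thinning, 0 with no replicate block by preparation, and 3 to 9 on leaving out a library, with 3 without either PancVAX library or the whole tumor library of both antibodies and 5 without their Percoll library. The 3 calls of PancVAX against Isotype Control became 0 without upper limits, 8 with every gene that had a count, 0 with no replicate block by preparation, and 1 to 5 on leaving out a library. The 2 calls by clone size stayed at 2 to 2 on leaving out a library and became 0 within exhausted and 0 within effector cells, where Fos reversed to 0.26. The 22 steps between lineage levels became 39 without upper limits, and of the 90 steps 64 kept their direction after thinning and 73 to 80 under the other alternatives. The PancVAX call lost without upper limits and after thinning was that of Fosl1 in CD8 T cells.

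Of the single member results recomputed, 1150 kept their direction and call, 131 kept the direction but lost the call and 1 reversed; the causes were not tested. The call that was lost most often under preparation was Atf3 in neutrophils (14 alternatives), at the fold limit. Pooled mice leave the spread between animals unmeasured. Low counts of Fosl1 and Batf outside their leading lineages, and of Atf3 in T, B and NK cells, limit what these libraries can show.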
